A study of Homo sapiens with 15 samples.

Results

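The comparison set HEK293 cells that overexpressed ZC3H7B against the matching tag control: 3 Flag/HA-ZC3H7B and 3 Flag/HA-control RNA-seq libraries, taken from a series of 15 libraries in 5 groups. Every gene of the deposited table of normalised counts was kept if its value reached 10 in at least 3 of these 6 libraries, which left 17353 of 55773 genes. Both groups were cells of the Flp-In T-REx line, a HEK293 derivative in which a transgene at 1 genomic site answers to doxycycline, and the medium of this line held zeocin and blasticidin. All 6 libraries are labelled as treated with doxycycline, given at 1 µg/mL for 24 h. The cells were opened in hypotonic buffer, a portion of that lysate gave the poly(A) RNA, and each group is described as 3 independent replicates. Whether a line is 1 clone or a pool was not given in the sources used here, and the p-values measure only the spread between these libraries. Flag/HA-ZC3H7A cells, handled in the same way, served as a second overexpression group. In DD cells ZC3H7A was knocked out and ZC3H7B was targeted by an shRNA, and the Parental cells beside them were wild type with a control shRNA; these 6 libraries came from puromycin-selected cultures and another library protocol.

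ZC3H7B and its paralogue ZC3H7A are RNA-binding proteins with CCCH zinc fingers. The title of the series ties both to translation and mRNA stability that depend on codons. The genetic code is degenerate: most amino acids are written by several synonymous codons that differ mainly in the third base, and the choice among them can affect how fast a ribosome moves and how long an mRNA lasts. In HEK293 cells, a transformed embryonic kidney line with epithelial and neuronal features, mRNA levels also respond to the integrated stress response, in which kinases of eIF2α favour translation of the transcription factor ATF4 and so raise genes of amino-acid supply. The comparison asks which mRNAs change in amount when ZC3H7B is in excess.

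The control libraries held 57.3, 46.5 and 50.5 M reads on genes, and the ZC3H7B libraries 57.6, 52.5 and 53.9 M. The spread between replicates beyond counting noise was 2.03% of a gene's level in the control and 4.34% in the ZC3H7B group. Most markers fixed for HEK293 were present in both groups, although PAX8 (2.29 at most) and NEFM and NEFH (35.4 at most) were low. The summed level of 3 epithelial markers, mostly VIM, was 9608 to 10171 in the controls and 14829 to 16284 with ZC3H7B, that of 4 neuronal-lineage markers, mostly NEFL and INA, 5938 to 6092 and 8749 to 8927, and that of 5 kidney-lineage markers 1117 to 1171 and 1463 to 1511. Within the kidney sum GATA3 rose by 1.06 on the log2 scale and LHX1 fell by 0.93. Markers of other cell types were low. The sums over 6 leukocyte, 4 endothelial, 6 fibroblast, 5 hepatocyte and 5 squamous markers stayed between 1.59 and 43.9 in every library, and only the muscle sum was larger, 458 to 470.2 in the controls and 370.0 to 425 with ZC3H7B. ACTN2 carried it, while MYH7, DES and MYOD1 stayed at 10.9 or below. No marker of these lists was at 0 in all 6 libraries. Whether the shifts in these sums bear on the results below was not tested, and in bulk RNA fewer cells of a type and less RNA per cell cannot be told apart.

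ZC3H7B mRNA itself was 5951, 5818 and 6044 in control libraries 1 to 3 and 28082, 26712 and 26632 in the ZC3H7B libraries, a 4.57-fold rise (log2 fold change 2.19 ± 0.030, adjusted p = 7.02e-15). The reads of the transgene and of the endogenous gene cannot be told apart in this count. The Flag/HA-ZC3H7A cells had a ZC3H7B level of 7976 ± 508 (SD, n = 3), far below the cells labelled for ZC3H7B. Endogenous ZC3H7A fell in the ZC3H7B cells, from 3179.6, 3374 and 3223 to 1935, 2049 and 2113 (log2 fold change −0.68 ± 0.038, adjusted p = 9.68e-10). The groups did not overlap for either gene.

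The response covered most of the expressed genes but was shallow. With limma on log2(value + 1) and a Benjamini-Hochberg adjusted p below 0.05, 13073 of the 17353 genes were called (75.3%): 5938 were higher with ZC3H7B (34.2%) and 7135 lower (41.1%). The 3 libraries of a group did not overlap those of the other for 13529 genes (78.0%). The median absolute log2 fold change of the called genes was 0.47, and 1811 of them differed by less than 0.2. Larger changes were mostly falls: 325 genes rose at least 2-fold (1.87%) and 1366 fell that much (7.87%), and at 4-fold the counts were 39 and 93. Over all tested genes the median log2 fold change was −0.06 with an interquartile range of −0.48 to 0.28. The split between rises and falls depended on the scaling: of the called genes 45.4% were higher with the authors' scaling, 52.7% with TMM and 55.2% after centring on the median gene, which moved every log2 fold change up by 0.11. A log2 fold change within that distance of 0 therefore has no fixed direction, and lists of genes are set here beside the −0.06 of all tested genes.

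**Figure D1:**
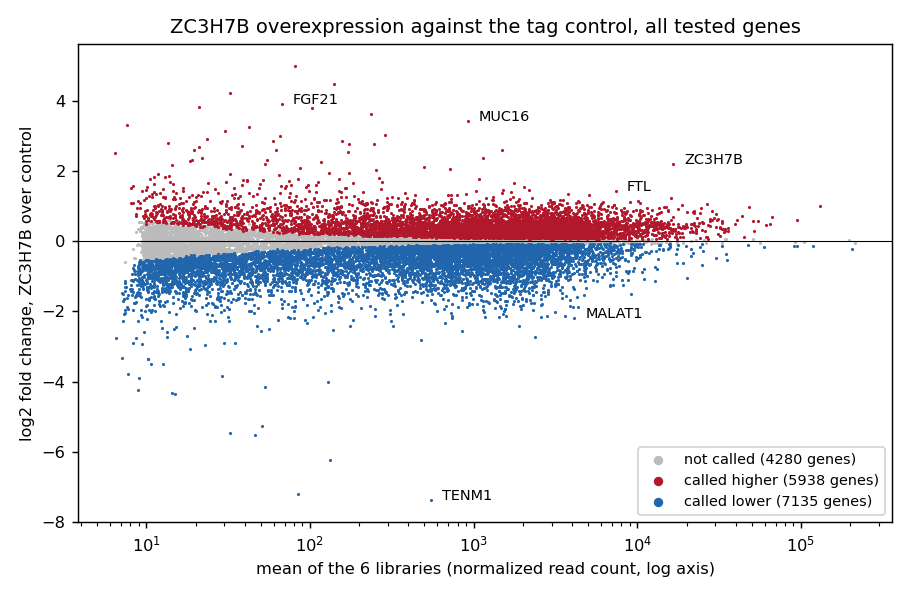
Log2 fold change of ZC3H7B over control (y axis) against mean level on a log axis (x axis), 1 point for each of the 17353 tested genes, with called genes in colour and ZC3H7B, MUC16, FGF21, TENM1, MALAT1 and FTL named. The called falls reach further from 0 than the called rises, and most abundant genes lie above 0.

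Level and gene class went with direction. Of 342 genes with a mean above 10000, 251 rose and 57 fell, whereas of 5121 genes below 100, 727 rose and 2143 fell. Among 13451 protein-coding genes 5389 rose and 5401 fell, and among 628 long non-coding genes 78 rose and 327 fell (median −0.31). The ZC3H7B libraries did not respond to one extent: library 3 lay nearest to the control mean for 59.5% of the called rises and 60.0% of the called falls, and the median log2 difference of the called falls was −0.61, −0.57 and −0.50 in the 3 libraries. Without that library 5924 genes rose and 7222 fell.

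The coding sequences of strongly changed abundant mRNAs differed in their codon endings, and the opening 90 coding bases of 2 such genes that rose and 3 that fell are shown for that reason (GRCh38, GENCODE 29, 5′ to 3′). Capitals mark an A or T in the third base of a codon.
FTL: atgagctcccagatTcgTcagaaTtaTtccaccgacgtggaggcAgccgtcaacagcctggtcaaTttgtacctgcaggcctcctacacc
STMN3: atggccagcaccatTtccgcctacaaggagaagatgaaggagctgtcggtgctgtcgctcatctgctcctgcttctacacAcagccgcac
MANEA: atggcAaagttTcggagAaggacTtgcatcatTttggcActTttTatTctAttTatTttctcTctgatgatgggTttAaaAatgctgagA
TMTC3: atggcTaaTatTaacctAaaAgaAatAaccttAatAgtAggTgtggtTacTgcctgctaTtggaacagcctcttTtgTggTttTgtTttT
ITGAV: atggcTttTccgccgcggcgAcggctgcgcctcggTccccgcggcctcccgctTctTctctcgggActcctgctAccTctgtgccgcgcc
FTL (chr19:48965508-48965597, plus strand) and STMN3 (spliced within chr20:63644239-63653345, minus strand) carry 6 and 2 codons ending in A or T among these 30. MANEA (chr6:95586440-95586529, plus strand), TMTC3 (chr12:88148316-88148405, plus strand) and ITGAV (chr2:186590339-186590428, plus strand) carry 17, 20 and 9. Over the whole coding sequence such codons are 26.4% of FTL and 8.94% of STMN3, against 67.7% of MANEA, 68.6% of TMTC3 and 59.5% of ITGAV. FTL and STMN3 also lie in stretches of chromosomes 19 and 20 where most expressed genes rose (medians 0.56 and 0.61, described below). In these 2 genes codon endings and chromosome cannot be told apart.

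FTL, the light chain of the iron store ferritin, was 3852, 4162 and 4102 in control libraries 1 to 3 and 10989, 10811 and 10561 in the ZC3H7B libraries (log2 fold change 1.42 ± 0.033, adjusted p = 5.13e-13). STMN3, a microtubule-binding stathmin, was 855, 841 and 859 in control libraries 1 to 3 and 2800.0, 2681 and 2562 in the ZC3H7B libraries (log2 fold change 1.65 ± 0.038, adjusted p = 4.94e-13). Both rose about evenly in all 3 ZC3H7B libraries. MANEA, an α-mannosidase of the Golgi, was 1429, 1414 and 1493 in control libraries 1 to 3 and 214, 231 and 290.1 in the ZC3H7B libraries (log2 fold change −2.57 ± 0.083, adjusted p = 5.31e-12). TMTC3, an endoplasmic reticulum mannosyltransferase, was 3189.7, 3167 and 3237 in control libraries 1 to 3 and 521, 583 and 703 in the ZC3H7B libraries (log2 fold change −2.42 ± 0.076, adjusted p = 4.37e-12). In these genes the groups were far apart, and library 3 of the ZC3H7B group was the least changed. ITGAV, the integrin αV chain, was 2348, 2390.3 and 2309.7 in control libraries 1 to 3 and 481, 514 and 585 in the ZC3H7B libraries (log2 fold change −2.16 ± 0.058, adjusted p = 1.25e-12).

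Across 13408 tested genes with a complete coding sequence, the more codons ended in A or T the lower the gene was with ZC3H7B. Sorted into 5 classes of equal size by that share, the median log2 fold change was 0.22 in class 1 (up to 23.9% of codons), 0.19 in class 2 (to 34.2%), 0.12 in class 3 (to 46.6%), −0.13 in class 4 (to 58.3%) and −0.49 in class 5 (to 78.7%). In class 1, 56.5% of genes rose, and in class 5, 79.3% fell. Each ZC3H7B library showed it: class 5 had medians of −0.58, −0.49 and −0.40 and class 1 of 0.26, 0.21 and 0.20, while the control libraries stayed within 0.011 of 0 in both classes. Across genes, which are not independent replicates, Spearman's rho between the share and the log2 fold change was −0.463, and −0.546 among 11334 genes with a mean of at least 100. These points share 6 libraries and the base composition of their surroundings.

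**Figure D2:**
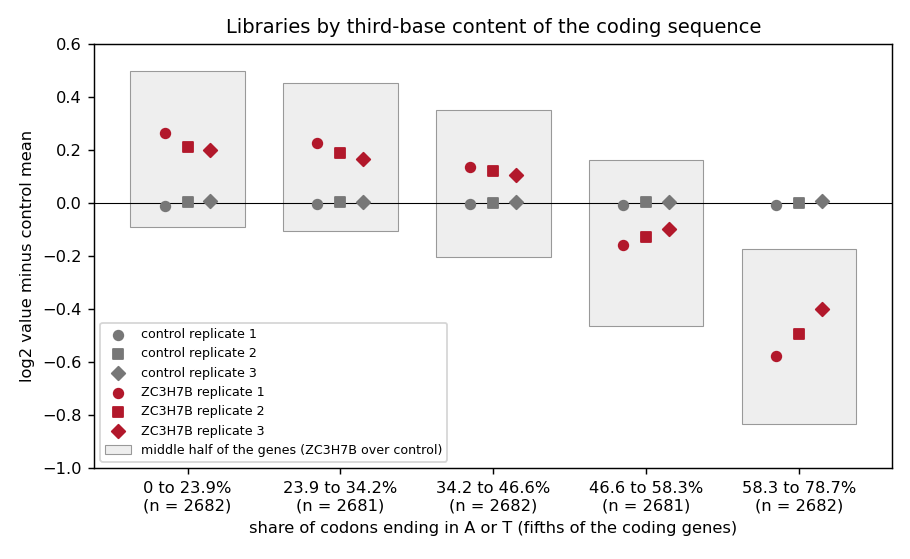
Log2 fold change of ZC3H7B over control by how many codons ended in A or T, in 5 classes of equal gene number, with the median of each control library (grey) and ZC3H7B library (red) and the interquartile range of the genes (boxes). The medians fall from 0.22 in class 1 to −0.49 in class 5, with the steepest steps in the last 2 classes.

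The same order appeared within amino acids. For each of the 18 amino acids with synonymous codons, the share written with A or T at the end was negatively related to the log2 fold change across genes, from rho −0.432 for leucine, −0.431 for glutamate and −0.428 for isoleucine to −0.285 for cysteine. Of 59 codons with synonyms, 29 of the 30 that end in A or T had a negative rho (median −0.298) and 28 of the 29 that end in G or C a positive one (median 0.257). The most negative were ATA (isoleucine, −0.415), TTA (leucine, −0.412), AAT (asparagine, −0.395), AAA (lysine, −0.366) and GAA (glutamate, −0.362). The most positive were GCC (alanine, 0.390), CGG (arginine, 0.373), CCC (proline, 0.360) and CTG (leucine, 0.353). Codon endings were not the only part of the transcript that moved with the change. The A+T content gave rho −0.524 over the whole transcript, −0.474 in the 3′ untranslated region (13044 genes), −0.387 and −0.229 at codon positions 1 and 2, and −0.165 in the 5′ untranslated region (12164 genes). Lengths were less related, with rho −0.097 for the coding sequence and −0.171 for the 3′ untranslated region. Which of these parts bears on the change was not tested.

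The chromosome of a gene also went with its change. Expressed genes (mean 100 or more) were followed in runs of about 40 neighbours, and the stretches described here were picked after their values were seen. On chromosome 19, 639 of 814 genes rose and 93 fell, with medians of 0.59, 0.54 and 0.53 in the 3 ZC3H7B libraries. Of its zinc finger genes tested at any level, 92 of 214 rose and 70 fell. On chromosome 20 the 80 genes from the start had a median of 0.12, whereas from SEC23B to the end 211 of 236 rose (median 0.61). The last 80 genes of chromosome 14, from CPSF2 to TMEM121, had a median of 0.57, after 0.09 in the run before. The 42 genes from ZMYND11 to FRMD4A on chromosome 10 had a median of 0.49, followed by −0.17 in the next run. The ZC3H7A libraries, set against the same controls, were also above them in these 4 stretches, for example with medians of 0.65, 0.64 and 0.53 on chromosome 19 and 0.73, 0.72 and 0.63 on chromosome 20. Codon endings and chromosome overlapped in part: the median share of A- or T-ending codons was 24.5% on chromosome 19, 33.6% on chromosome 20 and 43.4% elsewhere. Within class 1 of codon endings the median log2 fold change was still 0.70 on chromosome 19, 0.58 on chromosome 20 and 0.19 elsewhere, and in class 5 it was −0.16, 0.16 and −0.50. Without chromosomes 10, 14, 19 and 20, rho with the share of A- or T-ending codons was −0.445 over 11084 genes, and 4555 genes were called higher and 6485 lower. DNA copy number was not analysed here, and what sets these stretches was not tested.

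**Figure D3:**
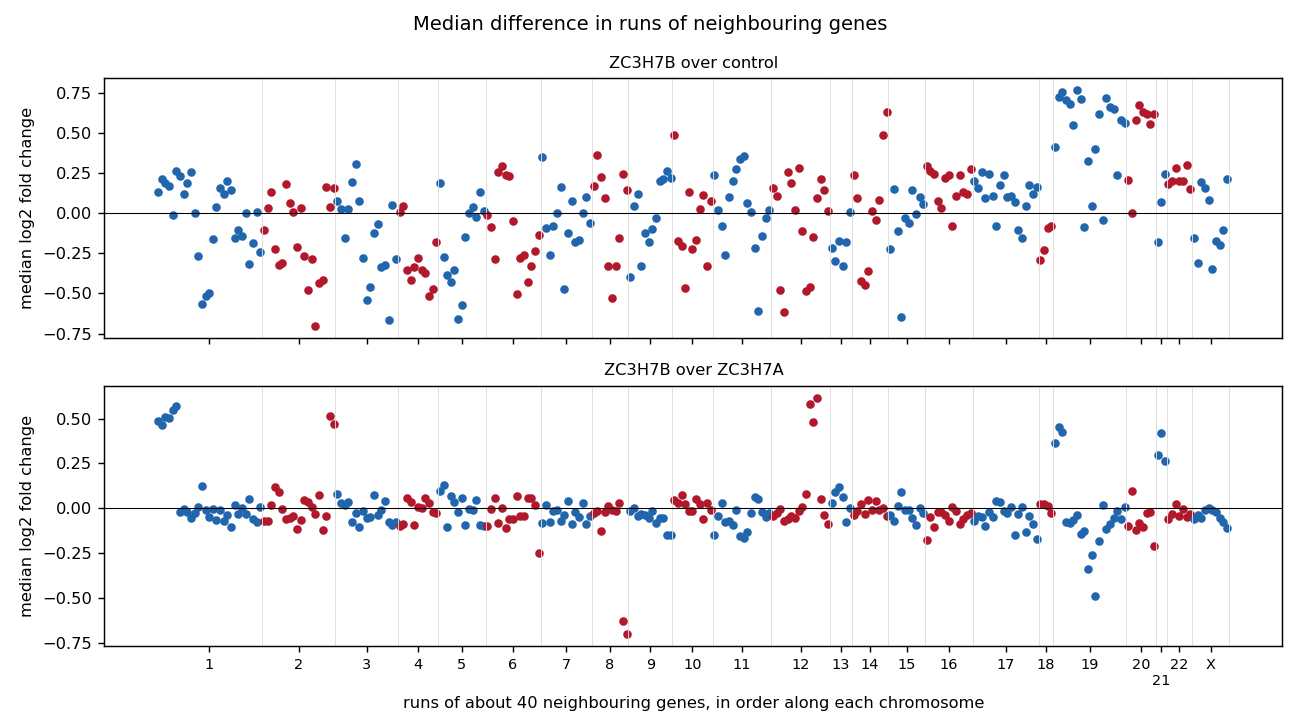
Median log2 difference of runs of about 40 neighbouring genes in genome order, ZC3H7B over control above and ZC3H7B over ZC3H7A below, with colours alternating by chromosome. Against the control, most runs of chromosomes 19 and 20, the first of chromosome 10 and the last ones of chromosome 14 stand above the rest, and against ZC3H7A runs of chromosomes 1, 2, 12, 19 and 21 stand above and the last runs of chromosome 8 below.

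Gene lists of different functions differed in direction, but they were not matched for level or base content. Of the genes with a mean above 10000, 73.4% rose (median 0.34). Most genes rose in the lists of DNA replication, glycolysis, cytosolic ribosomal proteins and the integrated stress response, and most fell in those of histones and interferon effectors. Rises also outnumbered falls in the first 4 of these without the genes of chromosomes 10, 14, 19 and 20: there 32 of 39 rose and 5 fell (median 0.41) for DNA replication and G1/S, 13 of 14 rose and 0 fell (median 0.48) for glycolytic enzymes, 54 of 68 rose and 5 fell (median 0.30) for cytosolic ribosomal proteins, and 24 of 36 rose and 10 fell (median 0.49) for the integrated stress response. Off those chromosomes 30.8% of all tested genes rose and 43.8% fell (median −0.10). Single genes named below include members of these chromosomes. Where such a gene lies in a stretch that rose as a whole, its rise cannot be told apart from that of the stretch.

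**Figure D4:**
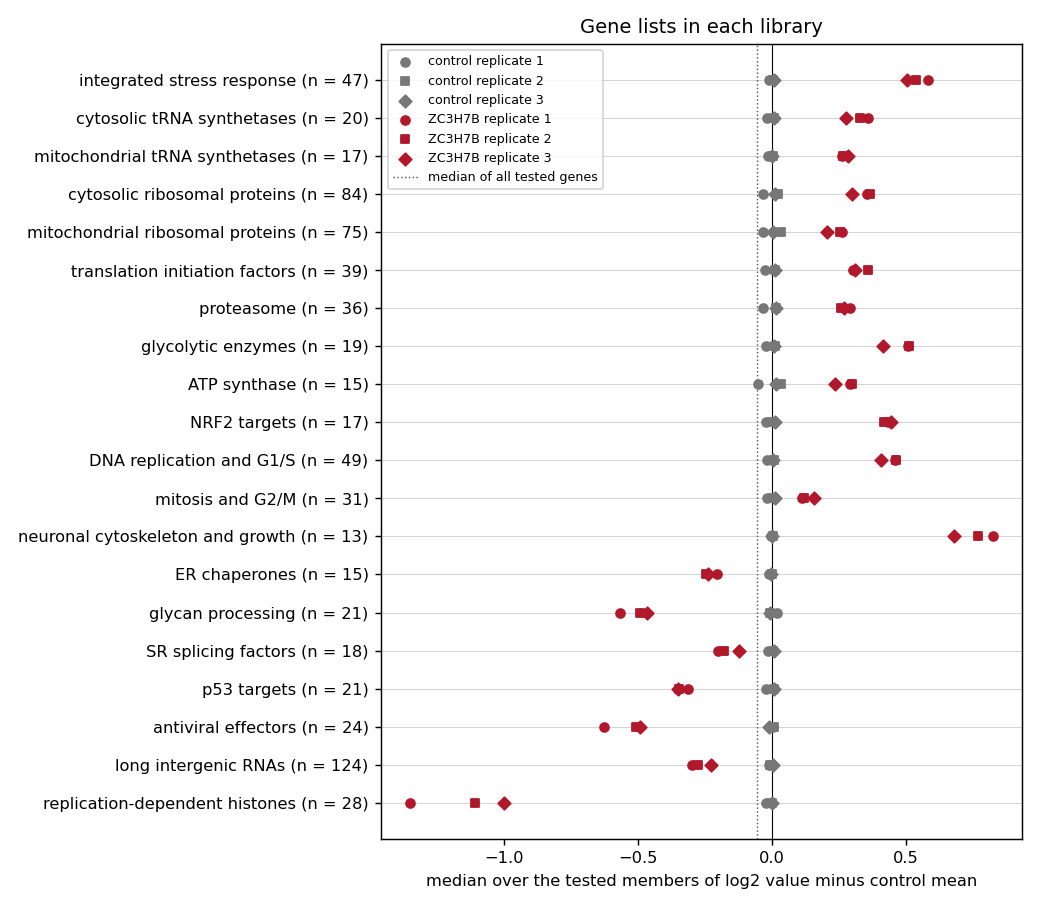
Median log2 difference from the control mean of 20 gene lists, 1 point for each control and ZC3H7B library, with the median of all tested genes as a dotted line. In all 20 lists the 3 ZC3H7B points lie on one side of the 3 control points, and the histone list is lowest.

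The integrated stress response list showed rises in its transcription factors and in amino-acid synthesis, and falls in most of its kinases. Of 47 genes tested, 34 rose and 11 fell (median 0.54). ATF4 binds DNA with C/EBP partners at a composite element whose core was searched as TGATGNAA on both strands, from 250 bases before to 50 after the transcript start (RefSeq, GRCh38.p14). It was found in 3.62% of 35116 promoters and in 8 of the 38 list genes with a promoter (21.1%). Promoter windows of 3 genes that rose are shown for their match, in capitals.
FGF21: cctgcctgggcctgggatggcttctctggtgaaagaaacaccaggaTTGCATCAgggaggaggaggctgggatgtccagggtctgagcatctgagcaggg
CHAC1: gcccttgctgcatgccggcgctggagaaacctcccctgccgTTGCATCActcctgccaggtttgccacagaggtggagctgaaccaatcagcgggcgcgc
ASNS: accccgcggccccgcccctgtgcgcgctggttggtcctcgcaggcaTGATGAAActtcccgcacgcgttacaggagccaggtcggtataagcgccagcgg
They lie at chr19:48755424-48755523, plus strand, chr15:40953221-40953320, plus strand, and chr7:97872423-97872522, minus strand, with the match 54, 209 and 68 bases before the start. Of the 8 genes with a match 6 rose and 2 fell (median 0.61), and of the 30 without one 22 rose and 7 fell (median 0.49).

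All 7 transcription factors of the list rose. ATF4 mRNA was 9969.6, 10451 and 10129.5 in control libraries 1 to 3 and 15132, 14887 and 14354 in the ZC3H7B libraries (log2 fold change 0.54 ± 0.030, adjusted p = 9.37e-10). NUPR1, a stress-induced chromatin cofactor, was 98.7, 90.4 and 105 in control libraries 1 to 3 and 221, 240.1 and 247 in the ZC3H7B libraries (log2 fold change 1.26 ± 0.080, adjusted p = 3.22e-09). Every ZC3H7B library was above every control library for both. The others changed by CEBPB (1.10), ATF5 (0.96), DDIT3 (0.45), CEBPG (0.39) and ATF3 (0.21) on the log2 scale. Among the core targets, CHAC1, which degrades glutathione, was 67.8, 71.0 and 72.5 in control libraries 1 to 3 and 296, 286 and 248 in the ZC3H7B libraries (log2 fold change 1.96 ± 0.083, adjusted p = 6.18e-11). TRIB3, a feedback gene whose pseudokinase restrains ATF4, was 838, 834 and 889 in control libraries 1 to 3 and 1677, 1523 and 1404 in the ZC3H7B libraries (log2 fold change 0.84 ± 0.055, adjusted p = 4.98e-09). In both, library 3 of the ZC3H7B group was the lowest of its group and still above all controls. The eIF2 kinases went mostly down: EIF2AK2 (PKR) was 4309.5, 4003 and 3993 in control libraries 1 to 3 and 2098, 2197 and 2353 in the ZC3H7B libraries (log2 fold change −0.89 ± 0.043, adjusted p = 2.47e-10), and EIF2AK3 (−0.26) and EIF2AK4 (−0.16) fell by less, EIF2AK4 no longer passing after median centring (−0.05), while EIF2AK1 (HRI) rose by 0.20. Of the eIF2α phosphatase subunits that close the loop, PPP1R15A rose by 0.80 and PPP1R15B fell (log2 fold change −0.42). The 2 feedback genes that rose, TRIB3 and PPP1R15A, lie on the chromosomes left out earlier. Off those chromosomes PPP1R15B was the 1 feedback gene tested.

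The secreted members of the list diverged. FGF21, a metabolic hormone, was 6.92, 8.59 and 6.88 in control libraries 1 to 3 and 136, 132 and 113 in the ZC3H7B libraries, a 17.0-fold rise (log2 fold change 3.92 ± 0.15, adjusted p = 1.76e-11). FGF21 passed the filter only through the ZC3H7B libraries, and its control level was low. INHBE, an activin subunit, was 66.4, 53.8 and 67.2 in control libraries 1 to 3 and 511, 546 and 489 in the ZC3H7B libraries (log2 fold change 3.03 ± 0.088, adjusted p = 2.44e-12). STC2, a stanniocalcin, rose by 0.65. GDF15, the stress hormone that acts on the hindbrain, went the other way and was 169, 153 and 161 in control libraries 1 to 3 and 25.5, 30.6 and 38.99 in the ZC3H7B libraries, 5.08-fold lower (log2 fold change −2.33 ± 0.13, adjusted p = 1.16e-09). No ZC3H7B library reached the lowest control for GDF15. Amino-acid synthesis rose in 9 of 10 genes, among them ASNS, which makes asparagine, at 3442, 3617 and 3599 in control libraries 1 to 3 and 7539.6, 7543 and 6969 in the ZC3H7B libraries (log2 fold change 1.05 ± 0.036, adjusted p = 8.97e-12). The proline enzyme PYCR1 (1.01), the one-carbon enzyme SHMT2 (0.76) and the serine enzymes PHGDH (0.62), PSAT1 (0.58) and PSPH (0.33) also rose. Transporters split: SLC6A9 for glycine, SLC1A5 for glutamine and both chains of the LAT1 exchanger rose (1.30, 0.98, 0.84 for SLC7A5 and 0.68 for SLC3A2). The cystine carrier SLC7A11 (−0.37) and the neutral amino-acid carrier SLC38A2 (−0.42) fell, although once the genome-wide trend with A+T content was removed their log2 fold changes were 0.60 and 0.25.

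In DD cells, labelled as knocked out for the paralogue and with less ZC3H7B, the list stood the other way. ZC3H7B mRNA was 6463 ± 505 in Parental and 1084 ± 84.1 in DD cells (log2 fold change −2.58 ± 0.082, adjusted p = 4.19e-09), while ZC3H7A mRNA did not pass the test (0.051 ± 0.077, adjusted p = 0.666). Of the 47 stress-response genes, 33 fell and 2 rose in DD (median −0.49), against 14.8% and 14.7% of the 18494 genes tested there; without DD replicate 1 the 2716 rises over all genes became 1561. ATF4 was 20009 ± 1404 in Parental and 9778 ± 73.7 in DD (SD, n = 3; log2 fold change −1.03 ± 0.067, adjusted p = 9.79e-07). STC2 went from 3177 ± 215 to 1009 ± 82.4 (−1.65 ± 0.083, adjusted p = 1.78e-07), and SLC6A9 from 1542 ± 76.0 to 506 ± 15.8 (−1.60 ± 0.081, adjusted p = 1.81e-07). FGF21 was low in both, 15.0 ± 4.90 and 15.6 ± 3.18, and did not pass (0.082 ± 0.43, adjusted p = 0.907). The 2 comparisons share no library, and differ in library protocol and depth.

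**Figure D5:**
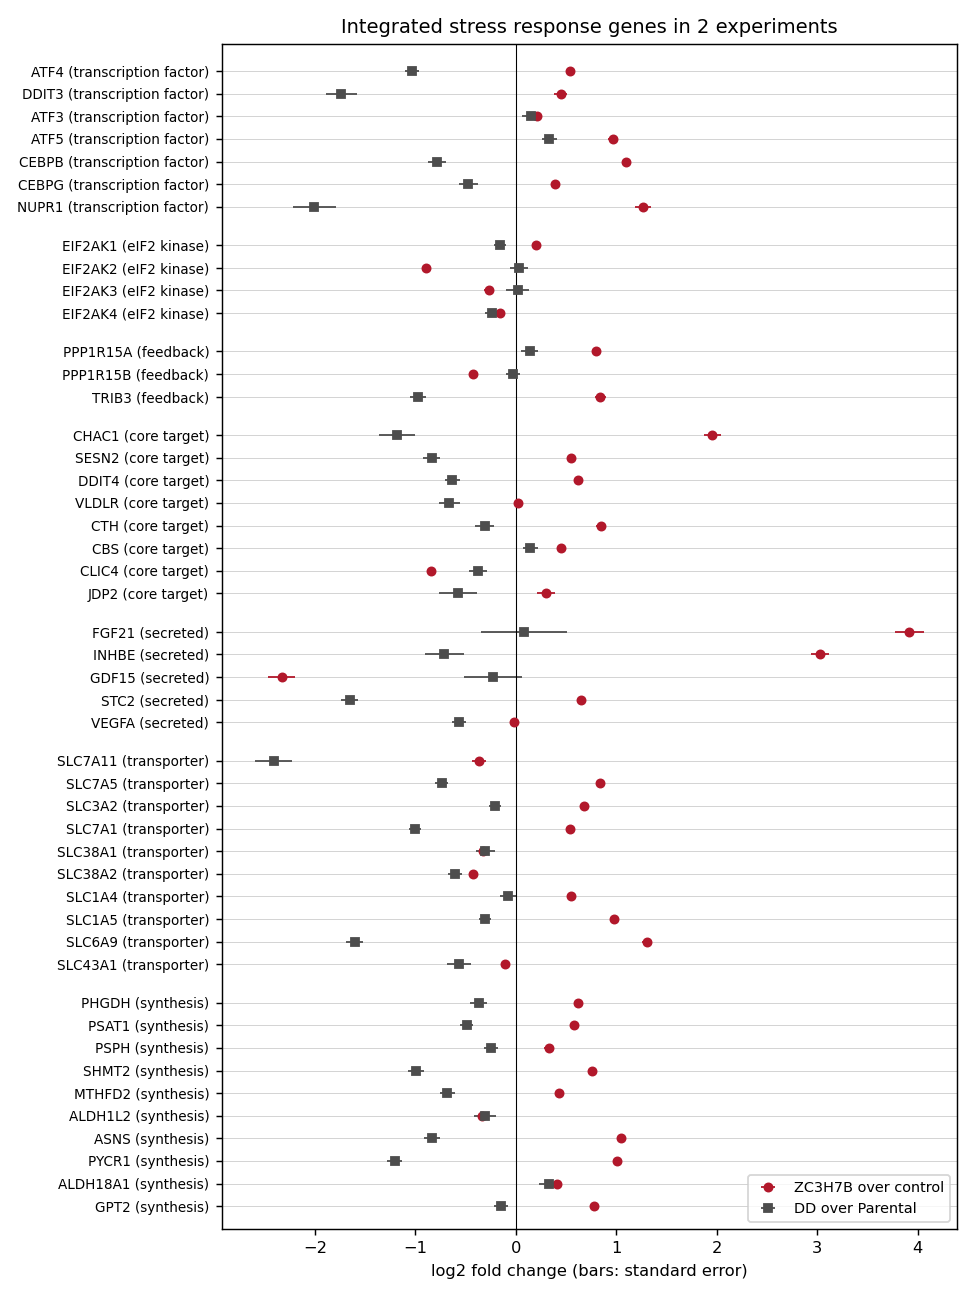
Log2 fold change of the 47 tested genes of the integrated stress response, ZC3H7B over control (circles) and DD over Parental (squares), with standard errors. Most circles lie to the right of 0 and most squares to the left, and GDF15 and EIF2AK2 are exceptions among the circles.

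Genes of protein synthesis mostly rose. Aminoacyl-tRNA synthetases load amino acids onto tRNAs: of the cytosolic enzymes 15 of 20 rose and 3 fell (median 0.32), and of the mitochondrial ones 14 of 17 rose and 2 fell (median 0.27). FARSA, the phenylalanine enzyme's α chain, was 4575, 4742 and 4741 in control libraries 1 to 3 and 9957, 9706 and 9312 in the ZC3H7B libraries (log2 fold change 1.04 ± 0.032, adjusted p = 3.40e-12). MARS, for methionine, rose by 0.66. Mitochondrial IARS2 fell and was 9018, 9226 and 9095 in control libraries 1 to 3 and 6339, 6561 and 6437 in the ZC3H7B libraries (log2 fold change −0.50 ± 0.028, adjusted p = 8.24e-10). Of the cytosolic ribosomal proteins 68 of 84 rose and 5 fell (median 0.35), with similar medians in the large (0.32) and small (0.35) subunit. RPS19 was 32102, 34139 and 32846 in control libraries 1 to 3 and 55415, 54797 and 51463 in the ZC3H7B libraries (log2 fold change 0.71 ± 0.034, adjusted p = 2.10e-10), and RPL18 rose by 0.86. These genes have short coding sequences with many processed copies in the genome, so their counts are less certain. In DD cells 71 of the 84 tested there fell (median −0.42).

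Among translation factors, EEF2, the translocase of elongation, was 85771, 87399.8 and 89098 in control libraries 1 to 3 and 182437, 175888 and 167800.0 in the ZC3H7B libraries (log2 fold change 1.00 ± 0.033, adjusted p = 6.75e-12). EIF4EBP1, a repressor of cap-dependent initiation and an ATF4 target, was 1887, 1943 and 1957 in control libraries 1 to 3 and 4348, 4162 and 3953 in the ZC3H7B libraries (log2 fold change 1.11 ± 0.037, adjusted p = 7.35e-12). EIF6, which keeps the large subunit from joining too early, rose by 1.11. All 3 were above the controls in every ZC3H7B library. EEF2 lies on chromosome 19 and EIF6 in the stretch of chromosome 20 where most expressed genes rose. In EEF2 and EIF6 the rise cannot be told apart from that of the stretch. Of the initiation factors 22 of 39 rose and 13 fell (median 0.36), and off chromosomes 10, 14, 19 and 20 16 of 30 rose and 10 fell (median 0.19). Those that fell included EIF3J (−0.75) and EIF1AX (−1.28). Enzymes that modify the wobble base of tRNAs, which reads the third base of the codon, rose in 13 of 18 genes and fell in 3 (median 0.36). Off chromosomes 10, 14, 19 and 20, 9 of 14 rose and 3 fell (median 0.20). CTU1, which thiolates the wobble uridine, was 564, 597 and 530.5 in control libraries 1 to 3 and 1092, 1061 and 1108 in the ZC3H7B libraries (log2 fold change 0.95 ± 0.048, adjusted p = 3.33e-10), and ADAT3, an adenosine deaminase subunit, rose by 0.98. URM1, the sulphur carrier of the same thiolation, rose by 0.51. CTU1 and ADAT3 lie on chromosome 19, where most expressed genes rose, and their rises cannot be told apart from that of the chromosome. In ribosome biogenesis 20 of 30 rose and 6 fell (median 0.21), for example RRP9 (0.67), RRP12 (0.66) and NOP2 (0.48).

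Genes that prepare and carry out DNA replication rose together. Of the list 41 of 49 rose and 6 fell (median 0.46), and all 15 licensing and helicase genes tested rose (median 0.57). Many are targets of E2F factors, whose sites were searched as TTTGGCGC or TTTCCCGC on both strands in the same windows. A match was found in 2.27% of all promoters and in 21 of the 43 list genes with a promoter (48.8%). A window is shown for GINS1, a helicase subunit, and for UHRF1, which maintains DNA methylation, because both rose and carry a match, in capitals.
GINS1: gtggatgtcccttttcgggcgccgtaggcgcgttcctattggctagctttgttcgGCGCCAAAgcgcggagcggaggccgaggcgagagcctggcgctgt
UHRF1: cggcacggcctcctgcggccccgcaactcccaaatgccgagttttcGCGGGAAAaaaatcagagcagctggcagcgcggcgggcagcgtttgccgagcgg
They lie at chr20:25407623-25407722, plus strand, and chr19:4909441-4909540, plus strand. Both are in stretches of chromosomes 20 and 19 where most expressed genes rose (medians 0.61 and 0.56). In these 2 genes the rise cannot be told apart from that of the stretch. Without the genes of the chromosomes left out earlier, 32 of 39 list genes rose and 5 fell (median 0.41). The genes with a match (18 higher, 2 lower, median 0.46) and the 22 without (19 higher, 2 lower, median 0.44) had nearly the same median.

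TK1, which salvages thymidine, was 1863, 1978 and 2004 in control libraries 1 to 3 and 4206, 4128 and 3927 in the ZC3H7B libraries (log2 fold change 1.07 ± 0.037, adjusted p = 1.08e-11). UHRF1 was 2576, 2519 and 2483 in control libraries 1 to 3 and 4958, 4983 and 5003 in the ZC3H7B libraries (log2 fold change 0.98 ± 0.029, adjusted p = 3.08e-12). MCM5, a subunit of the replicative helicase, was 5344, 5376 and 5535 in control libraries 1 to 3 and 8406, 8143 and 7850.3 in the ZC3H7B libraries (log2 fold change 0.59 ± 0.032, adjusted p = 6.54e-10). The groups were apart for all 3. POLD1, the catalytic chain of polymerase δ (0.83), LIG1, the ligase of the lagging strand (0.66), and CDT1, a licensing factor (0.57), also rose. Against ZC3H7A cells 32 of these genes were higher and 1 lower, beside 3600 higher and 4232 lower among all 17673 genes of that contrast. In DD cells 29 of 49 rose and 2 fell against Parental (median 0.37). In mitosis the list was split (17 of 31 rose and 10 fell, median 0.12): the spindle factor TPX2, the kinases AURKA and AURKB and the kinesin KIF20A rose (0.81, 0.82, 0.65 and 0.63), and HMMR, a spindle and hyaluronan-binding protein, was 2911, 2882 and 2924 in control libraries 1 to 3 and 1007, 1174 and 1307 in the ZC3H7B libraries (log2 fold change −1.33 ± 0.067, adjusted p = 3.24e-10). CDK inhibitors moved apart, with CDKN1A (p21) at 4217, 4430.4 and 4457 in control libraries 1 to 3 and 2365, 2279 and 2258 in the ZC3H7B libraries (log2 fold change −0.92 ± 0.033, adjusted p = 1.39e-11) and CDKN2D (p19) up by 0.88. Of the p53 targets 5 of 21 rose and 13 fell (median −0.34), with falls of ZMAT3 (−1.56), TP53INP1 (−1.51) and MDM2 (−0.92) and a rise of BAX (0.61). UHRF1, POLD1, LIG1, TPX2, AURKA, CDKN2D and BAX lie on the chromosomes left out earlier. Their rises were not tested apart from those of neighbouring genes. Off those chromosomes 12 of 24 mitosis genes rose and 8 fell (median 0.096). Of the D cyclins and CDK inhibitors there, 5 of 12 rose and 6 fell, and of the p53 targets 3 of 18 rose and 12 fell. HEK293 cells carry adenoviral E1A and E1B, which act on RB and p53.

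Sensors and effectors of the interferon list mostly fell. Of 45 tested, 32 fell and 3 rose (median −0.37); all 5 sensors tested fell, and so did 20 of 24 effectors, beside 41.1% of all tested genes. Of the antigen presentation genes 1 of 10 rose and 5 fell (median −0.072, above 0 with TMM or median centring), and of the transcription factors 1 of 6 rose and 2 fell. Interferon-responsive promoters carry copies of GAAA separated by 2 bases. Such a pair, on either strand, was found in 3.57% of all promoters and in 22 of the 34 list genes with a promoter (64.7%). TLR3, a sensor of double-stranded RNA, fell and carries a match, shown in capitals.
TLR3: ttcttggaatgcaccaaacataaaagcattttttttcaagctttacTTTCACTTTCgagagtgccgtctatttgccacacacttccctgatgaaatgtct
It lies at chr4:186069106-186069205, plus strand. Of the 22 genes with a match 19 fell (median −0.45), and of the 12 without 8 fell (median −0.22), with no rise in either set. TLR3 was 54.0, 49.2 and 65.6 in control libraries 1 to 3 and 16.6, 19.9 and 16.6 in the ZC3H7B libraries (log2 fold change −1.61 ± 0.15, adjusted p = 2.40e-07), a low level at which the groups still did not overlap. PARP14, an interferon-induced ADP-ribosyltransferase, was 1285, 1306 and 1242 in control libraries 1 to 3 and 606, 688 and 703 in the ZC3H7B libraries (log2 fold change −0.94 ± 0.053, adjusted p = 9.66e-10). IFIH1 (MDA5), another RNA sensor, was 205, 204 and 212 in control libraries 1 to 3 and 123.4, 141 and 145 in the ZC3H7B libraries (log2 fold change −0.60 ± 0.076, adjusted p = 5.16e-06). Signalling genes moved less or the other way: STAT2 (−0.26) fell, and the transcription factor IRF3 rose by 0.50. IRF3 lies on a chromosome left out earlier, and its rise was not tested apart from that of neighbouring genes. Off those chromosomes 0 of 4 transcription factors of the list rose and 2 fell (median −0.17).

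Replication-dependent histone genes fell as a list: 25 of 28 fell and 2 rose (median −1.15). Their main transcripts lack a poly(A) tail, so poly(A) libraries count only the polyadenylated share. HIST1H2AC was 313, 308 and 324 in control libraries 1 to 3 and 99.4, 122 and 107 in the ZC3H7B libraries (log2 fold change −1.52 ± 0.079, adjusted p = 4.75e-10). HIST1H2BK was 2796, 2883 and 3018 in control libraries 1 to 3 and 1481, 1553 and 1539 in the ZC3H7B libraries (log2 fold change −0.93 ± 0.037, adjusted p = 3.28e-11). SLBP, which binds the histone stem-loop, rose by only 0.13. Near-identical histone copies share reads, so single genes are uncertain. MALAT1, an abundant nuclear RNA, was 6484, 6859.6 and 6922 in control libraries 1 to 3 and 1275, 1389 and 1816 in the ZC3H7B libraries, 4.52-fold lower (log2 fold change −2.19 ± 0.089, adjusted p = 4.19e-11); the lysate was hypotonic and the nuclear share it kept is not given. Of 124 long intergenic RNAs tested 20 rose and 65 fell (median −0.30), a median that became 0.011 when the trend with A+T content was removed.

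Nuclear genes of glycolysis and of the respiratory chain mostly rose. Of the glycolytic enzymes 18 of 19 rose and 0 fell (median 0.49). PFKP, the platelet form of phosphofructokinase, was 5595, 5649.6 and 5620.1 in control libraries 1 to 3 and 11261, 10751 and 10593 in the ZC3H7B libraries (log2 fold change 0.95 ± 0.030, adjusted p = 4.19e-12). GPI, the isomerase of glucose 6-phosphate, was 17812, 17694 and 17990.0 in control libraries 1 to 3 and 29471, 28089.6 and 27611 in the ZC3H7B libraries (log2 fold change 0.67 ± 0.029, adjusted p = 8.73e-11). ENO1, the α enolase, was 73610.4, 75761 and 76209.8 in control libraries 1 to 3 and 119021, 116573 and 108115 in the ZC3H7B libraries (log2 fold change 0.61 ± 0.035, adjusted p = 1.46e-09). The 3 genes were higher in every ZC3H7B library. Of the respiratory chain's complexes II to V 33 of 38 rose and 3 fell, including all 15 ATP synthase genes tested (median 0.26), among them ATP5D (0.91), ATP5E (0.46) and ATP5G1 (0.31). The falls were 1 each in complexes II, III and IV. In complex II SDHA and SDHC were up (0.43 and 0.41) and the membrane anchor SDHD was down (−0.45, or −0.07 and not passing with the A+T trend removed). In complex I 25 of 37 rose and 4 fell (median 0.21), and off chromosomes 10, 14, 19 and 20 17 of 29 rose and 4 fell (median 0.11). These are nuclear genes. Of 13 mitochondrially encoded genes 6 fell (46.2%), beside 41.1% of all tested genes, and the others did not pass the test. The median of the 13 was −0.066, close to the −0.056 of all tested genes and within the distance of 0 that has no fixed direction. Of the hypoxia targets outside glycolysis 6 of 12 rose and 6 fell. NRF2 targets, which defend against oxidants, rose in 14 of 17 genes, for example the pentose phosphate enzymes PGD (0.72) and TKT (0.71) and the ferritin heavy chain FTH1 (0.43).

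In the list of endoplasmic reticulum (ER) chaperones and the unfolded protein response 8 of 31 rose and 21 fell. Of the chaperones 2 of 15 rose and 12 fell (median −0.26). HSP90B1, the ER form of HSP90, was 30309, 30962 and 31053 in control libraries 1 to 3 and 17597, 19685 and 20405 in the ZC3H7B libraries (log2 fold change −0.68 ± 0.043, adjusted p = 3.44e-09). DNAJC3, a co-chaperone that also inhibits eIF2 kinases, was 2514, 2517 and 2509 in control libraries 1 to 3 and 1152, 1178 and 1315 in the ZC3H7B libraries (log2 fold change −1.05 ± 0.045, adjusted p = 6.69e-11). CALR, a lectin chaperone, rose instead, by 0.37, and its membrane relative CANX fell (−0.37). ER-associated degradation was split (4 of 9 rose and 4 fell, median −0.080, above 0 with median centring or the A+T trend removed), with falls of EDEM1 (−0.90) and SEL1L (−0.66) and rises of EDEM2 (0.64) and DERL3 (0.41). EDEM2 lies in the stretch of chromosome 20 where most expressed genes rose. With the same chromosomes left out, 3 of 7 genes of ER-associated degradation rose and 3 fell. Among the other falls was MBTPS2, a protease that releases SREBP (−1.05). In glycan processing 6 of 21 rose and 14 fell (median −0.51): beside MANEA, the Golgi mannosidases MAN1A1 (−1.13) and MAN1A2 (−0.99) and the oligosaccharyltransferase STT3B (−0.61) fell. Among sterol genes both directions occurred (10 of 23 rose and 12 fell).

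Neuronal genes were grouped by role. Of the cytoskeleton and growth genes 10 of 13 rose and 1 fell (median 0.78), for example CRMP1, a collapsin-response protein, at 819, 782 and 799.7 in control libraries 1 to 3 and 1420.1, 1365 and 1347 in the ZC3H7B libraries (log2 fold change 0.78 ± 0.039, adjusted p = 2.85e-10). The other genes of this subgroup that rose were up by 0.23 to 1.65. MAP2, of dendritic microtubules, was the 1 gene that fell, at 138, 135 and 143 in control libraries 1 to 3 and 43.1, 43.0 and 45.2 in the ZC3H7B libraries (log2 fold change −1.64 ± 0.091, adjusted p = 8.11e-10). SYP, the vesicle protein synaptophysin, was 532, 512 and 474 in control libraries 1 to 3 and 1312, 1349 and 1229 in the ZC3H7B libraries (log2 fold change 1.36 ± 0.051, adjusted p = 1.85e-11), whereas SYT1, the calcium sensor of release, was 12.0, 13.7 and 15.3 in control libraries 1 to 3 and 0.979, 0 and 0.520 in the ZC3H7B libraries (adjusted p = 8.79e-07). For SYT1 the ZC3H7B libraries held 3 reads in all against 79 in the controls, a 26.4-fold lower level (95% interval 8.72 to 131, counting error only). SYT1 passed the filter only through the controls. Of the vesicle and secretion genes 5 of 9 rose and 1 fell. Adhesion and scaffold genes were split: 5 of 17 rose and 7 fell, with TENM1 and DLGAP1 among the falls. Their median, −0.032, lay within the distance of 0 that has no fixed direction. Of the neuronal RNA-binding genes 3 of 5 rose and 1 fell. Among other abundant genes with large changes, CNN2, an actin-binding calponin, was 386, 362 and 365 in control libraries 1 to 3 and 1960.0, 1887 and 1871 in the ZC3H7B libraries (log2 fold change 2.36 ± 0.042, adjusted p = 6.83e-14). AMOT, a scaffold of the Hippo pathway, was 458, 419 and 399 in control libraries 1 to 3 and 2626, 2566 and 2518 in the ZC3H7B libraries (log2 fold change 2.59 ± 0.048, adjusted p = 8.41e-14). GNAO1, a G-protein α chain of neurons, was 284, 270.2 and 288 in control libraries 1 to 3 and 1210.1, 1149.8 and 1125 in the ZC3H7B libraries (log2 fold change 2.05 ± 0.048, adjusted p = 4.94e-13). These 3 rose in every library by similar amounts. On the side of falls, CEP290, of the cilium base, was 2501, 2434 and 2409 in control libraries 1 to 3 and 476, 521 and 771 in the ZC3H7B libraries (log2 fold change −2.08 ± 0.12, adjusted p = 1.34e-09), and AKAP9, a Golgi and centrosome scaffold, was 4265, 4221 and 4161 in control libraries 1 to 3 and 729, 912 and 1268 in the ZC3H7B libraries (log2 fold change −2.16 ± 0.13, adjusted p = 1.89e-09).

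Genes of mRNA decay were mixed. Of the decapping and exonuclease list 19 of 31 rose and 10 fell (median 0.18). DCP2, the decapping enzyme, was 4957, 5119.5 and 5101 in control libraries 1 to 3 and 1613, 1831 and 2083 in the ZC3H7B libraries (log2 fold change −1.46 ± 0.065, adjusted p = 9.16e-11). XRN1, the 5′ to 3′ exonuclease that follows it, was 1727, 1727 and 1690.4 in control libraries 1 to 3 and 723, 775 and 888 in the ZC3H7B libraries (log2 fold change −1.11 ± 0.059, adjusted p = 5.34e-10). The decapping scaffold EDC4 (0.55) and the ring subunits LSM7 (0.78) and LSM4 (0.86) rose. DDX6, a helicase of codon-linked decay, did not pass (log2 fold change 0.0039 ± 0.031, adjusted p = 0.916). In the ribosome-rescue list, LTN1 (−1.02) and NEMF (−1.14), which tag stalled chains, fell, and the collision sensor ZNF598 (0.46) and EDF1 (0.54) rose. Of the cap-binding repressor EIF4E2 (4EHP) and its partners, the log2 fold changes were EIF4E2 (0.42), GIGYF1 (−0.12) and GIGYF2 (0.094). In nonsense-mediated decay 8 of 14 rose and 3 fell, with UPF1 up by 0.43.

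A direct contrast compared the overexpression lines of the paralogues. Of 17673 genes tested 7832 were called (44.3%), 3600 higher and 4232 lower with ZC3H7B than with ZC3H7A; 2-fold differences were found for 265 and 317 genes. This contrast uses the same ZC3H7B libraries as the one against the control. The spread between replicates was larger in the ZC3H7A group (8.90%). The share of A- or T-ending codons had a rank correlation (Spearman) of 0.245 with this difference, opposite in sign to that against the control. This sign does not mean that the paralogues moved in opposite directions. In class 1 of codon endings ZC3H7B was above the control (median 0.22) and below ZC3H7A (−0.13). In class 5 ZC3H7B was below the control (−0.49) and above ZC3H7A (0.11). By these medians ZC3H7B lay between the control and ZC3H7A. The correlation for ZC3H7A against the control was not tested. The start of chromosome 1, from MTND2P28 to YTHDF2, was 1 of several shifted stretches: over 246 genes the median was 0.52 above ZC3H7A, with ZC3H7A libraries at −0.27, −0.27 and −0.38 against the control, and the next run had −0.022. The same genes had a median of −0.49 in DD against Parental. Other runs shifted against ZC3H7A were the last 2 of chromosome 2 (0.52 and 0.47), runs 11 to 13 of chromosome 12 (0.58, 0.48 and 0.62), runs 2 and 3 of chromosome 19 (0.45 and 0.42), run 2 of chromosome 21 (0.42) and, downward, the last 2 of chromosome 8 (−0.62 and −0.70) and run 12 of chromosome 19 (−0.49). All of these were picked after their values were seen, as those beyond 0.4 in size.

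Among single genes, APOBEC3B, a cytidine deaminase, was 162 ± 12.8 with ZC3H7B and 26.3 ± 7.82 with ZC3H7A (SD, n = 3; log2 difference 2.61 ± 0.16, adjusted p = 1.38e-07). CDH3, P-cadherin, was 372 ± 17.9 and 20.1 ± 3.91 (4.16 ± 0.11, adjusted p = 1.84e-10), and IGFBP7, which binds insulin-like growth factors, was 152 ± 16.3 and 23.6 ± 2.35 (2.63 ± 0.10, adjusted p = 4.04e-09). The ZC3H7B group was the higher in these 3. SPARC, a matrix glycoprotein, was 22.7 ± 6.50 with ZC3H7B and 394 ± 20.7 with ZC3H7A (−4.09 ± 0.18, adjusted p = 1.06e-08). BCHE, butyrylcholinesterase, was 14.5 ± 5.15 and 145 ± 28.7 (−3.29 ± 0.23, adjusted p = 3.82e-07), and RPL22L1, a paralogue of a ribosomal protein, 354 ± 14.8 and 2459.7 ± 90.8 (−2.79 ± 0.051, adjusted p = 2.15e-11). Of the stress-response genes, FGF21 stood 1.49 and INHBE 1.75 above ZC3H7A on the log2 scale, while ATF4 was −0.19 (adjusted p = 0.0018). Over the 47 genes of that list 11 were higher and 17 lower than with ZC3H7A (median −0.064). Among all 17673 genes of the contrast 3600 were higher and 4232 lower.

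Across the transcriptome the changes in DD cells bore little relation to those with ZC3H7B. Over 15993 genes tested in both comparisons, which share no library, Pearson's r between the log2 fold changes was 0.050 and Spearman's rho 0.034. Of the genes that rose with ZC3H7B 20.1% rose and 18.5% fell in DD, and of those that fell 15.1% rose and 14.2% fell. The relation to A- or T-ending codons was near 0 in DD (rho 0.040, 12892 genes). Opposite changes were seen in single genes. FUT1, a fucosyltransferase, was 81.7, 83.0 and 77.2 in control libraries 1 to 3 and 225, 215 and 218 in the ZC3H7B libraries (log2 fold change 1.43 ± 0.074, adjusted p = 4.36e-10), and went from 236 ± 46.9 in Parental to 100.3 ± 11.0 in DD (−1.22 ± 0.18, adjusted p = 3.53e-04). SPINT1, a protease inhibitor of epithelia, rose by 1.13 and fell in DD (−1.65). In the other direction PRKACB, a catalytic chain of protein kinase A, was 1199.7, 1215 and 1214 in control libraries 1 to 3 and 468, 478 and 496 in the ZC3H7B libraries (log2 fold change −1.33 ± 0.041, adjusted p = 3.63e-12), and went from 745 ± 104 to 1690.4 ± 122.8 in DD (1.19 ± 0.11, adjusted p = 1.02e-05). MAP2 fell with ZC3H7B, as given above, and rose by 1.17 in DD. CDKN1A likewise rose in DD, by 1.61.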

How the data were processed

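Poly(A) RNA-seq of 6 libraries was compared, 3 of Flag/HA-ZC3H7B and 3 of Flag/HA-control cells, with 9 further libraries beside them. Reads were aligned with STAR 2.7.10b and counted with HTSeq on hg19, and counts were normalised with DESeq2, per the submitters' processing notes. The deposited values are signal values, gene counts that the authors divided by 1 size factor per library; dividing by the value of 1 read gave whole reads (within 0.01 read) for 100% of values in every library. The library kit named in the labels does not mark strand, so reads of overlapping antisense genes cannot be told apart. Values of at least 10 in 3 or more of the 6 libraries were required, log2(value + 1) was fitted with limma 3.58.1 (R 4.3.3, mean-variance trend), and Benjamini-Hochberg adjusted p-values below 0.05 over all tested genes, two-sided, were called. An error after a log2 fold change is limma's standard error, and folds on this scale understate the change of low genes. ZC3H7B against ZC3H7A used the 9 induced libraries in 1 fit, and DD against Parental its own 6. Interaction terms were not fitted. Samples were grouped by their titles.

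Members and gene lists were chosen with earlier results of these data known. Genes were named by rule: ZC3H7B and ZC3H7A; the 25 largest rises and falls, and the 15 largest with a mean of at least 1000; list members (whole roles of up to 12 genes, otherwise 6 called genes); and the 10 largest differences each way from ZC3H7A and of opposite sign in DD. A few genes that meet these conditions are left out. Genes that bound a stretch of a chromosome were named after their values were seen. Of 55773 names, 34229 matched a GENCODE 29 symbol and 1124 an older one; the hg19 annotation was not used here. Same-numbered control and ZC3H7B libraries did not deviate together, so no pairing was assumed. The fit was tested on simulated data. Alternatives were edgeR 4.0.16 and DESeq2 1.42.0 on recovered reads, pseudocounts of 0.5 and 5, no filter and a filter at 50, TMM scaling, median centring, no mean-variance trend, a replicate block, removal of the A+T trend and each replicate left out, and, chosen after seeing the data, leaving out chromosomes 10, 14, 19 and 20. Tables were made with Python 3.11.15 and pandas 2.3.3.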

Additional observations from a re-analysis of the deposited data

How the results depend on the processing

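Between ZC3H7B and control, the number of genes called higher lay between 5447 (A+T trend removed, 13408 genes tested) and 7235 (median centring), and the number called lower between 5038 (A+T trend removed) and 8008 (no filter), leaving aside the 4555 and 6485 without chromosomes 10, 14, 19 and 20, where fewer genes were counted. edgeR on the recovered reads, of which 100% of values came out whole, called 13100 genes and DESeq2 12144. Same-numbered libraries share only a number: their deviations correlated at −0.0587, 0.128 and 0.00356, and a replicate block called 5927 higher and 7084 lower, with no change of call among the genes named. Of 141 genes named, 133 kept direction and call in every setting that gave a value. The A+T trend turned SLC7A11 to 0.60, SLC38A2 to 0.25 and the median of the long intergenic RNAs to 0.011. The median of ER-associated degradation turned to 0.027 under median centring and 0.013 with the A+T trend removed, and that of antigen presentation to 0.0053 under TMM and 0.034 under median centring. The other 27 of the 30 list medians checked kept their sign in every setting run. The medians of adhesion and scaffold genes and of mitochondrially encoded genes were not among these 30. Of the 30, 28 moved by more than the spread between replicates under TMM without a change of sign, 27 under median centring, 24 under DESeq2, 20 with the A+T trend removed and 15 without the 4 chromosomes. In DD against Parental, genes called higher numbered 1700 without the mean-variance trend and 1561 to 3564 with a replicate left out, the lowest without DD replicate 1. The causes were not tested. Against ZC3H7A the counts kept within 1.5 times of 3600 and 4232 in all settings run. Low values limit precision: a count of 0 allows up to 3 reads in a library.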
